A study of Mus musculus with 3 samples.

Results

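The genes of the cytosolic ribosome were followed here through early blood-forming cells of mouse bone marrow. Members were all rows of the count table whose symbol is that of a cytosolic large-subunit (Rpl) or small-subunit (Rps) protein, together with Rplp0, Rplp1, Rplp2 and Rpsa, and which held 1000 or more counted transcript molecules (UMIs, unique molecular identifiers) over all cells. Pseudogene rows and the S6 kinases were left out. Of 84 rows with such a symbol, 81 reached the minimum, out of 28692 gene IDs in all. The rule uses no measured difference between cells, but it was set with earlier results of these data known. The member nearest above the minimum was Rpl7l1 with 23061 UMIs. Rpl39l with 137 UMIs, Rpl3l with 118 and Rpl10l with 1 lay under it. The 49 large-subunit members held 55.7% of the member UMIs and the 32 small-subunit members 44.3%.

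A ribosome reads messenger RNA on its small subunit and joins amino acids on its large subunit, and each subunit is a scaffold of ribosomal RNA carrying single copies of most ribosomal proteins. The messenger RNAs of these proteins begin with a run of pyrimidines and are translated together under control of growth signals, while the proteins themselves are assembled with ribosomal RNA in the nucleolus. In the marrow, defects in single ribosomal proteins cause Diamond-Blackfan anaemia, a failure of red cell production, and maturing neutrophil precursors are known to lose their nucleoli and to make fewer ribosomes.

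The cells came from wild-type C57BL/6 mice, with no treatment named for either library, and the sources used here do not state their age. Hindlimb marrow was enriched on CD117 beads, sorted with fluorescent antibodies as a population that the labels call modified GMP (granulocyte-monocyte progenitor), and 10000 cells per sample were loaded for the 10x 3' v2 assay. A male library of 6796 cells and a female library of 4336 cells were made, and how many mice gave each is not stated. A pooled library held antibody tags for CD117, CD11b, Ly-6C and Ly-6G on the same cells. Sex and library cannot be told apart.

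The female library held 91448433 UMIs and the male library 124967351, with a median of 21202 and 18687 per cell and a lowest cell of 4373. Both libraries held 45 cell barcodes in common. The authors gave each cell 1 of 17 labels. How they were made is not stated, and if they were made from the same RNA, as is usual, a difference between labels describes them and is no independent evidence. Markers of most of the names were present. Summed over Ltf, Camp, Ngp, Lcn2, Mmp8 and Ly6g, genes of later neutrophil stages, the level was 2829 CPM (female) and 2505 (male) in Gran-2, at 46309 and 47741 in Myelo-1 and at 132475 and 128876 in Myelo-4. The granulocyte progenitor genes Elane, Mpo, Prtn3, Ctsg, Gfi1 and Cebpe summed to 46531 and 48910 in Gran-2 and to 3980 and 3387 in Myelo-4. HSCP-1, a label of 24 cells, also held lymphoid markers at 838 and 768 CPM, and Multi-Lin held basophil and mast cell markers at 2181 and 2730 CPM. The dendritic list reached 71103 and 60703 CPM in DC, and the erythroid list 4136 and 3941 in Eryth. In what follows, the early class is HSCP-1, HSCP-2 and Multi-Lin, the Gran class Gran-1 and Gran-2, the Myelo class Myelo-1 to Myelo-4, and the monocytic class joins MDP, cMoP and Mono. CPM, the usual sequencing unit for a gene's UMIs as a part of all UMIs, was taken within a label and a library, and since 1 UMI is 1 transcript end, it does not depend on gene length.

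Ribosomal protein promoters are known for a transcription start inside a run of pyrimidines, with sites for ETS factors and YY1 close by. Start-site windows in the RefSeq promoter table (assembly GRCm38.p6, the build called mm10) were found for 60 of the 81 members, some with more than a single start (71 windows). From 50 bases before to 50 after the start, a run of 8 or more pyrimidines on the gene's own strand stood in 83.3% of these 60 members, and in 39.3% of all 27025 genes of the table. In the 300 bases from 250 before to 50 after the start, the ETS core CCGGAAG stood on either strand in 25 members (41.7%, all genes 9.93%), the YY1 core AAGATGG in 16.7% (all genes 7.28%) and TATAAA in 11.7% (all genes 15.7%). Both cores hold a pyrimidine stretch on their other strand and can overlap a pyrimidine run, and a match is only a string of letters. The following windows, 60 bases with the start at base 46, are those of a steady member and of members that stood apart from the rest in the sections that follow. They are written 5' to 3' on the gene's own strand, and capitals mark pyrimidine runs of 8 or more and the named motifs on either strand. The windows of Rpl9, Rps2 and Rpl12 show no such run, but their longest runs within 50 bases of the start were 10, 10 and 8.
Rps15a, chr7:118116133-118116192, minus strand: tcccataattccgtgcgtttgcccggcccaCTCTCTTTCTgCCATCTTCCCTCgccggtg
Rps9, chr7:3703996-3704055, plus strand: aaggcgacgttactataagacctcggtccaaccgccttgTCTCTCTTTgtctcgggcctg
Rps27, chr3:90213634-90213693, minus strand: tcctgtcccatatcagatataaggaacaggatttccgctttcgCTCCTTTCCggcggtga
Rpl9, chr5:65391417-65391476, minus strand: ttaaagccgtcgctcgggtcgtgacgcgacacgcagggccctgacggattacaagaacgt
Rpl35, chr2:39005117-39005176, minus strand: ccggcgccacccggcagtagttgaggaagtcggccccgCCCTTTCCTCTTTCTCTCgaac
Rps2, chr17:24720018-24720077, plus strand: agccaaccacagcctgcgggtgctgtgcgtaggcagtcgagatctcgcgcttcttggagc
Rpl12, chr2:32961667-32961726, plus strand: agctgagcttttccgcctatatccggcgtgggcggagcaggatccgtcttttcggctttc
Rpl22l1, chr3:28805463-28805522, plus strand: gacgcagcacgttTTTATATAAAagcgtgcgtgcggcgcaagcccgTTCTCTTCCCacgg

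Members were among the most abundant transcripts of the cells. Together they made up 31.5% of all UMIs (female) and 31.8% (male). Where a pair of values follows a label, the female library comes before the male library. Rpl41, whose product is a very short basic peptide of the large subunit, had the highest mean at 7701 CPM, with 7704 (female) and 7697 (male). It was followed by Rps29 with 7098 CPM, Rps19 with 6953, Rpl32 with 6914 and Rpl13 with 6772. Rps19 is the gene most often mutated in Diamond-Blackfan anaemia. The lowest were the paralogs Rps27l with 813 CPM, Rpl6l with 177 and Rpl7l1 with 106. The 78 members over 1000 CPM held 99.7% of the member UMIs, and the 10 most abundant held 20.9%. A Rpl41 UMI was found in 99.991% of cells. The genes are scattered over the genome, with at most 14 of the 81 on the same chromosome (chromosome 7).

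The share of a cell's transcripts that were ribosomal protein messages was highest in Eryth and the HSCP labels and lowest in Myelo-2, Myelo-3 and Myelo-4. It was 39.4% (female) and 38.0% (male) in Eryth, 38.7% and 37.2% in HSCP-1, 37.0% and 36.5% in HSCP-2, and 36.6% and 36.7% in MDP. The 2 libraries of Eryth and HSCP-1 overlapped, as did those of HSCP-2 and MDP. Multi-Lin followed at 35.9% and 35.8%, IG2 at 35.8% and 35.7%, and MP at 35.5% and 35.3%. Mono (35.2% and 34.8%), Meg (34.5% and 35.0%) and Gran-1 (34.7% and 34.2%) came next. Meg overlapped both of its neighbours, while Mono lay above Gran-1 in both libraries. These 10 labels lay within a few points of each other.

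Below them lay cMoP, DC and the later granulocytic labels. The share was 32.9% in both libraries in cMoP, 30.9% and 30.3% in Gran-2, and 29.8% and 27.1% in DC, a label of 33 cells. Myelo-1 stood at 23.8% and 23.6%, Myelo-2 at 10.1% and 10.3%, Myelo-3 at 8.87% and 12.0%, and Myelo-4, a label of 59 cells, at 6.69% and 7.23%. Myelo-2 and Myelo-3 overlapped, and Myelo-4 lay under both in each library. These sums include cells far above the rest of their label. In the male library of Myelo-4, 1 of 28 cells held a share of 31.4% and gave 22.8% of the label's member UMIs, and without it the share was 5.89%. Without the Myelo-3 cells over 20%, 10 female and 71 male cells, Myelo-3 stood at 8.23% and 8.82%, under Myelo-2 in each library. With 2 libraries an exact two-sided permutation test cannot go below p = 0.5, so these shares are given without a test.

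**Figure D1:**
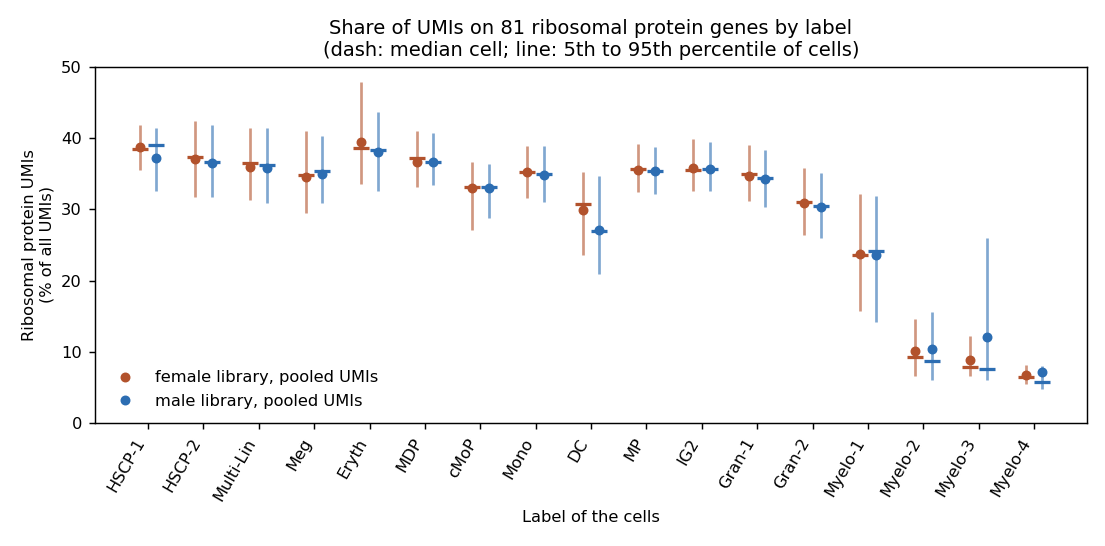
Share of UMIs on the 81 ribosomal protein genes (percent, vertical axis) in each of the 17 labels, with the summed value of each library as a point, the median cell as a dash and the cells without the lowest and highest 5% as a line. The points lie between 32.9% and 39.4% in all labels but DC, Gran-2 and the Myelo labels, and between 6.69% and 12.0% in Myelo-2, Myelo-3 and Myelo-4.

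A share is lower wherever other transcripts are higher, so the members were also counted per cell. The median Gran-1 cell held 9559 member UMIs (female) and 7644 (male), beside 17881.5 and 14716 UMIs of all other genes. The median Myelo-1 cell held 5447.5 and 4687 member UMIs beside 18289 and 15125 others. Between these labels the member count was lower and the count of other genes was not. The median Myelo-2 cell held 1307 and 1178 member UMIs, 4.17-fold and 3.98-fold lower than Myelo-1, while its other UMIs (12355 and 11563) were 1.48-fold and 1.31-fold lower. Myelo-3 held 749 and 657, and Myelo-4 held 390 and 311. Myelo-4 was thus 24.5-fold and 24.6-fold lower than Gran-1 in member UMIs and 3.24-fold and 3.12-fold lower in other UMIs. At the other end, HSCP-2 cells had a high share from few transcripts, with 3151 and 2714 member UMIs, and MP cells had the most, with 9917 and 8229.5. UMIs per cell rest on how much RNA a cell holds and on how much of it was captured, which cannot be told apart.

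**Figure D2:**
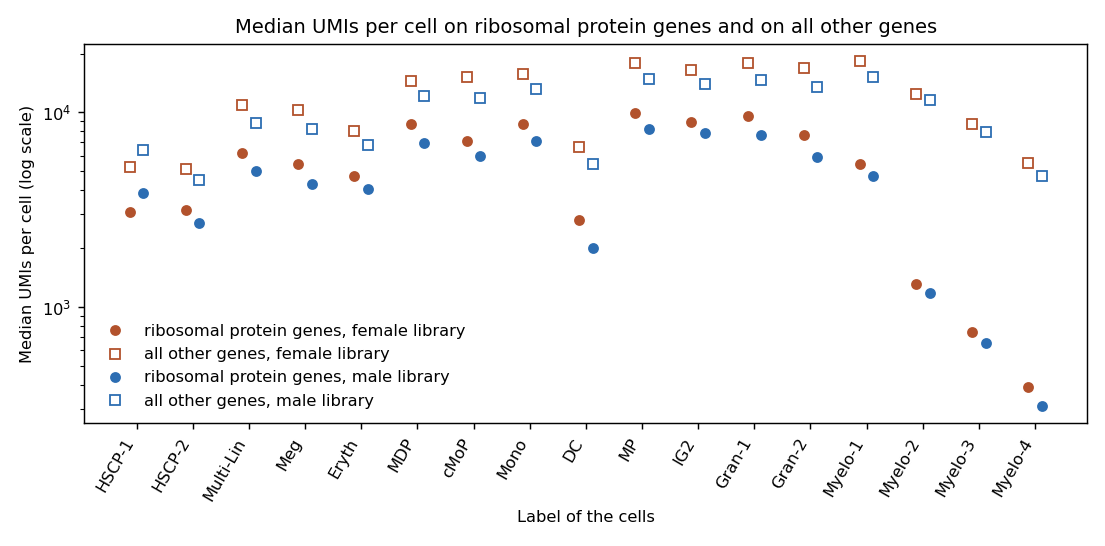
Median UMIs per cell (log axis) in each label and library, for the 81 ribosomal protein genes and for all other genes. From Gran-1 to Myelo-4 the ribosomal protein UMIs drop from 9559 to 390 in the female library, 24.5-fold, and those of all other genes 3.24-fold.

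A few granule and inflammatory transcripts took a large part of the UMIs of the Myelo labels. S100a8 reached 22.0% and S100a9 13.6% of the UMIs of a label, and 14 genes outside the family reached 1% in some label. Without those 14 genes the member share was 36.0% in Gran-1, 19.0% in Myelo-2, 19.9% in Myelo-3 and 14.5% in Myelo-4, and the range over labels was 25.014 points in place of 31.7. The median percent of mitochondrial UMIs was also lower in Myelo-4 (0.778% and 0.779%) than in Gran-1 (2.76% and 2.75%). It did not follow the member share throughout, at 2.89% and 2.85% in Gran-2 and 1.92% and 1.91% in Eryth. With mitochondrial transcripts left out of all UMIs, the mean share was 35.4% in Gran-1 and 7.06% in Myelo-4. Any other part of mitochondrial UMIs in the result was not tested.

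The family moved nearly as a block. Of the 81 members, 80 had their lowest mean CPM in Myelo-4, and the exception was Rps9, lowest in Myelo-2. Without the cells over 20% in Myelo-3 and Myelo-4, 79 were lowest in Myelo-4 and 2 in Myelo-3. The highest level was in Eryth for 25 members, HSCP-1 for 23, MP for 12, MDP for 7, Meg for 4, HSCP-2 for 3, and Mono and IG2 for 2 each. Gran-1 was highest for Rpl22l1 and Gran-2 for Rps29. HSCP-1 holds 24 cells and Eryth 84, and the share differed between the libraries of each (38.7% and 37.2%, 39.4% and 38.0%). Which of the top labels is highest for a member is therefore uncertain. How many of all genes had their lowest or highest CPM in each label was not counted. Scaled by total UMIs, as CPM is, 56.2% of 11473 genes were called lower in the Myelo class than in the Gran class. All 81 members differed over the labels in a fit of 34 sums (17 labels in 2 libraries) with edgeR's quasi-likelihood test at an adjusted p of 0.05, where 88.5% of 11627 genes tested did.

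To see which members left the block, each member was set against the summed UMIs of all members. Its departure is the log2 of its share of the member UMIs in a label minus the mean of that value over the labels, so 0 means that it kept its usual place in the family. The SD of the departure over labels had a median of 0.145 over the members, 74 members stayed under 0.25, and none passed 0.5. For 45 members the departures of the female and the male library correlated over the labels with r above 0.9 (17 points that share libraries and depth, a description). With the summed member UMIs as library size, 78 of the 81 still differed over labels (all genes 93.1%). The 3 that did not were Rps19 (adjusted p = 0.0889), Rpl23a (0.056) and Rps15a (0.178), and these with Rpl26 were also the steadiest by SD, at 0.05 to 0.07. The Rps15a window printed above carries 2 pyrimidine runs, of which the later holds the start and overlaps a YY1 core.

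**Figure D3:**
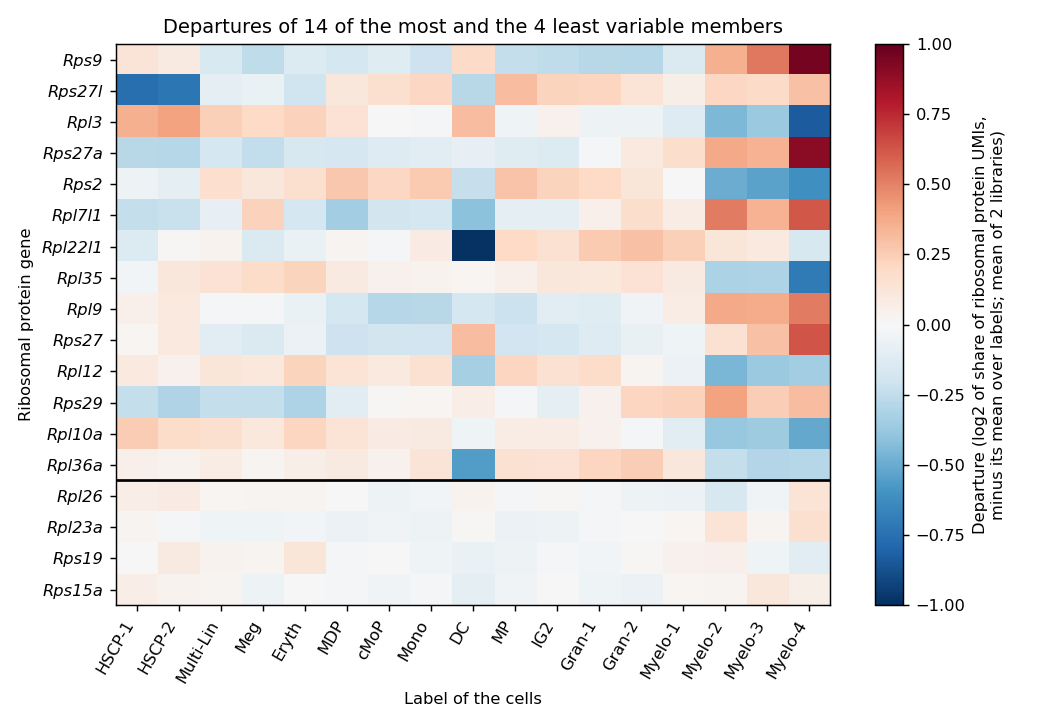
Departure of a member from the summed ribosomal protein UMIs (log2, colour) in each label as the mean of both libraries, for 14 of the members with the largest SD over labels (above the black line) and the 4 with the smallest (below it). Rps9 and Rps27a stand high and Rpl3 and Rps2 low in Myelo-4, while Rps15a stays near 0 throughout.

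Among small-subunit members, Rps9 departed most (SD 0.34), with r = 0.985 between the libraries. Rps9 (chr7:3703954-3706897, here and below RefSeq gene positions on GRCm38.p6) encodes a small-subunit protein at the entry of the mRNA channel. Its level was 6722 CPM (female) and 5681 (male) in HSCP-1, 4253 and 4212 in Gran-1, 3772 and 3719 in Gran-2, and 3180 and 3223 in Myelo-1. It was then near the same level in the last labels, at 1964 and 1938 in Myelo-2, 2031 and 2420 in Myelo-3, and 1995 and 2027 in Myelo-4. Its departure went from -0.30 and -0.27 in Gran-2 to 0.99 and 0.93 in Myelo-4. The Myelo-4 values rest on 382 and 316 UMIs, with a counting error of 0.074 and 0.081 in log2. Without the male cell of high share, Rps9 stood in male Myelo-4 at 1821 CPM with a departure of 1.05.

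Rps27a (chr11:29545842-29548040) is made as a fusion with ubiquitin, which is cut off to give a ubiquitin monomer and a small-subunit protein. It went from 6232 CPM (female) and 6301 (male) in Gran-1 to 2389 and 2527 in Myelo-2 and 2355 and 2431 in Myelo-4, and its departure in Myelo-4 was 0.96 and 0.85. Its Myelo-2 and Myelo-4 values were thus close in each library. Rps2 (chr17:24718121-24721927), which lines the path by which messenger RNA enters the small subunit, did the opposite. It stood at 5632 and 5992 CPM in MDP, 5109 and 5307 in Gran-1, 880 and 1030 in Myelo-2, and 543 and 654 in Myelo-4, with a departure of -0.62 and -0.60 there. Its window printed above holds no run of 8 pyrimidines, which says only that these letters are not in those 60 bases.

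Among large-subunit members, Rpl3 (chr15:80077781-80083406), a protein close to the site of peptide bond formation, was high in the early class. It stood at 5413 CPM (female) and 5191 (male) in HSCP-2, 3705 and 3539 in Gran-1, 805 and 831 in Myelo-2, and 381 and 468 in Myelo-4. Its departure went from 0.42 and 0.39 in HSCP-2 to -0.93 and -0.74 in Myelo-4, where it rests on 73 UMIs in each library with a counting error of 0.169. Without the male cell of high share, the male departure of Rpl3 in Myelo-4 was -1.09 and its level 291 CPM. Rpl35 (chr2:39001581-39005131), a protein near the exit of the peptide tunnel, went from 3775 and 3314 CPM in Gran-1 to 392 and 417 in Myelo-4. Rpl9 (chr5:65388364-65391431) was the reverse, with a departure of 0.52 and 0.53 in Myelo-4. Large-subunit and small-subunit members were thus found on both sides.

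Departures were most frequent in Myelo-4, then in Myelo-2 and DC. In Myelo-4, 13 members lay above 0.25 in both libraries (Rps9, Rps27a, Rps27, Rpl9, Rpl30, Rpl34, Rpl37, Rps25, Rpl31, Rpl29, Rps29, Rps10 and Rpl27) and 12 lay below -0.25 (Rpl3, Rpl35, Rps2, Rpl10a, Rps18, Rpl15, Rpl14, Rplp1, Rpl12, Rpl6, Rpl13 and Rps3a1). In Myelo-2, 7 lay above and 8 below, and in Myelo-3 there were 5 on each side. Without the cells over 20%, the counts were 15 above and 18 below in Myelo-4 and 7 above and 11 below in Myelo-3. In DC, 3 lay above and 9 below. Rpl22l1 and Rpl36a were among the 9, and Rpl36a stood in DC at 1703 CPM (female) and 1702 (male). Multi-Lin, IG2 and Myelo-1 held no member beyond 0.25 in both libraries. Without the 5 labels under 50 cells in either library (HSCP-1, Eryth, cMoP, DC and Myelo-4), the median SD over members was 0.106 in place of 0.145.

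The paralogs are related copies of other members, and some of them can take the place of a partner in the ribosome. Rps27l (chr9:66944624-66949522), a copy of Rps27 that is a known p53 target, was low in the HSCP labels, at 479 CPM (female) and 563 (male) in HSCP-1 and 486 and 549 in HSCP-2. It was 760 and 793 in Multi-Lin, 903 and 959 in Gran-1, 994 and 1045 in MP and 198 and 192 in Myelo-4. Its departure was -0.78 and -0.67 in HSCP-2 and 0.31 in both libraries in MP, so its place in the family was lower in HSCP-2 than in MP. Rpl22l1 (chr3:28805508-28807424), the paralog of the RNA-binding large-subunit protein Rpl22, was 1811 and 1969 CPM in HSCP-2, 2072 and 2127 in Gran-1 and 277 and 359 in Myelo-4. In DC it stood at 760 and 693, a departure of -0.95 and -1.04 with a counting error of 0.162 and 0.129. Rpl22 was 1376 and 1264 CPM in DC and 1996 and 1908 in Gran-1, nearer to each other. Rpl7l1 had a large SD (0.29), but its libraries correlated with r = 0.29, and in DC it rested on 4 and 21 UMIs.

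The first comparison asked how the granulocyte progenitor labels differ from the early ones, from sums per library and class fitted with edgeR (4 sums, library as covariate, trimmed mean of M-values or TMM scaling). With that scaling 69 of the 81 members were higher in Gran, 2 lower and 10 not called, while 32.5% of all 12051 genes tested were called higher and 34.2% lower. Scaled by total UMIs, 13 were higher and 59 lower (all genes 16.1% and 56.1%). The direction of the family as a whole therefore depended on the scaling. The median log2 fold change of the members was 0.19 with TMM and -0.10 with total UMIs, beside -0.02 and -0.31 over all genes, so it lay 0.21 above the median gene under each. Within the family, with the summed member UMIs as library size, 30 were higher and 32 lower (all genes 21.4% and 47.9%).

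Rps27l, Rps29, Rps26, Rpl41 and Rpl22l1 were higher in Gran under all 3 scalings. Class values here are CPM scaled by TMM. Rps27l stood at 942 (female) and 1033 (male) in Gran and at 641 and 693 in early, a log2 fold change of 0.57 ± 0.02 (SE, adjusted p = 6.5e-12), or 0.28 by total UMIs. Rps29, a zinc-binding protein of the small subunit, stood at 8963 and 8581 against 6283 and 6009 (0.51 ± 0.01, adjusted p = 3.8e-14), or 0.22 by total UMIs. Rps26, which contacts messenger RNA at its exit from the small subunit, changed by 0.50 ± 0.02 (0.21 by total UMIs), and Rpl41 by 0.47 ± 0.01 (0.18 by total UMIs). In each case both Gran values lay above both early values. Rpl22l1 changed by 0.42 ± 0.02, and Rpl7l1 by 0.37 ± 0.04 with TMM but by 0.08 with total UMIs.

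Rpl3 and Rps4x were the 2 members lower in Gran with TMM. Rpl3 stood at 3927 (female) and 3852 (male) in Gran and at 4355 and 4200 in early (-0.14 ± 0.02, adjusted p = 1.4e-06), and at -0.43 by total UMIs. Rps4x, the X-linked form of a small-subunit protein, changed by -0.04 ± 0.01 (adjusted p = 0.031), and the sign turned to 0.02 when only HSCP-1 and HSCP-2 stood for early. The stalk proteins Rplp0, Rplp1 and Rplp2, which recruit the translation factors to the large subunit, were all higher with TMM (0.10, 0.29 and 0.31), but by total UMIs they stood at -0.19, -0.0026 and 0.02. Rpl5 and Rpl11, which with 5S rRNA form the particle that can bind Mdm2 and spare p53, were higher with TMM (0.07 and 0.23) and lower by total UMIs (-0.21 and -0.06). Of the 9 Diamond-Blackfan genes listed, 8 were higher with TMM, and by total UMIs 2 were higher and 6 lower, beside the 69 of 81 members and the all-gene shares given above.

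The second comparison set the Myelo class against the Gran class. All 81 members were lower in Myelo with TMM, where 32.5% of 11473 genes were called lower and 33.5% higher. The log2 fold changes ran from -1.02 to -0.22 with a median of -0.64 beside -0.01 over all genes. By total UMIs all 81 were lower as well (all genes 56.2% lower and 15.6% higher), with a median of -1.13 beside -0.50. Rps2 had the largest change, from 4057 (female) and 4364 (male) in Gran to 1883 and 2298 in Myelo (-1.02 ± 0.08, adjusted p = 2.3e-21). Rpl12 (-0.98), which joins the stalk to the large subunit, the stalk protein Rplp1 (-0.96) and Rpl36a (-0.89) followed. Rps9 had the smallest, from 3415 and 3505 to 2905 and 3024 (-0.22 ± 0.08, adjusted p = 0.011). Rpl9 (-0.33), Rpl35a (-0.36) and Rps27a (-0.39) were next. For all of these, both Myelo values lay under both Gran values.

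Against the summed members, 7 members were higher in Myelo (Rps29, Rps27, Rps24, Rps27a, Rpl35a, Rpl9 and Rps9) and 10 lower (Rps2, Rpl12, Rplp1, Rpl36a, Rpl10a, Rpl36, Rpl14, Rpl22, Rpl10 and Rpl3), while of all genes 63.6% were higher and 7.49% lower. Rps9 stood at 0.41 ± 0.08 (adjusted p = 1.8e-06) and Rps2 at -0.38 ± 0.08 (adjusted p = 1.7e-05) on this scale. Of the 7, 5 encode small-subunit proteins, and of the 10, 9 encode large-subunit proteins. The family held 49 large-subunit and 32 small-subunit members, and no test of this split was made. In Myelo-4, members of both subunits departed to each side. Rpl5 (-0.82) and Rpl11 (-0.63) were both lower with TMM, as were the other members of each role. The Myelo class is weighted toward its largest labels, and the median member change was -1.04 without Myelo-1 and -0.51 without Myelo-2.

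**Figure D4:**
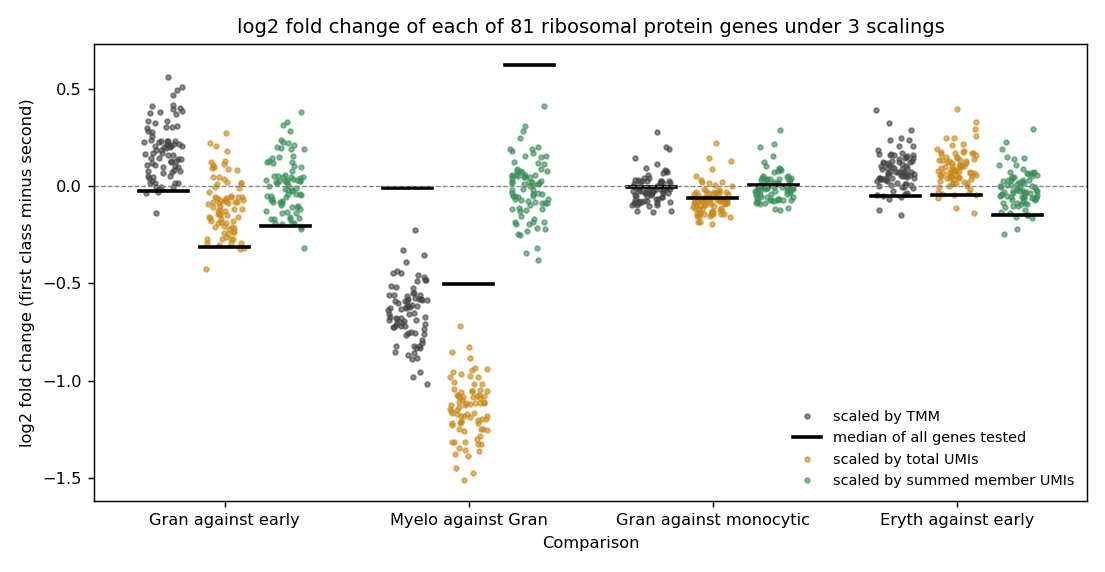
Log2 fold change of each of the 81 members (points) in 4 comparisons under 3 scalings, with the median of all genes as a black bar. In Myelo against Gran every member lies under 0 with TMM and with total UMIs, while in Gran against early the median moves from 0.19 with TMM to -0.10 with total UMIs.

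In Gran against monocytic, 19 members were higher and 35 lower with TMM (all 11602 genes 25.7% and 25.4%), 7 higher and 65 lower by total UMIs (all genes 20.2% and 30.2%), and the median was -0.02 with TMM and -0.08 by total UMIs. The changes were small beside those of Myelo. Rps26, Rplp0 and Rpl19 were lower in Gran by log2 values of -0.13 each, with SE of 0.01. Rpl37a (0.20), Rpl22l1 (0.19), Rpl9 (0.15) and the low paralog Rpl7l1 (0.28) were higher. Without the library as covariate only 4 were called higher and 0 lower, and the median was -0.02.

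Erythroid and early labels were compared last. Eryth held 6 members higher and 0 lower with TMM, beside 5.95% and 9.09% of 10896 genes. By total UMIs 21 were higher and 1 lower (all genes 6.3% and 9.03%). The 6 included Rpl13a (0.39 ± 0.08, adjusted p = 7.0e-05), Rpl14 (0.32), Rplp0 (0.29), Rpl37a (0.25) and Rpl17 (0.24). Rpl13a, known as the protein released from the ribosome to silence inflammatory messages, stood at 8029 (female) and 7982 (male) in Eryth and at 5953 and 6252 in early. Rpl14 stood at 6854 and 6694 against 5301 and 5524. Both libraries of Eryth lay above both of early for these genes, and Rpl13a and Rpl14 were also the members above 0.25 in departure in Eryth. The count higher was 40 in a fit over all labels, but 2 with no expression filter, 2 without the library as covariate and 1 after each cell was thinned to 4000 UMIs.

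The CPM of Myelo-4, the label with the lowest share, was also taken as a percent of Gran-1 for each gene. All members together stood at 19.3% (female) and 21.2% (male), and at 17.2% (male) without the cell of high share. Rps9 kept 46.9% and 48.1%, Rps27a 37.8% and 38.6%, Rps27 35.0% and 33.3%, Rpl9 30.1% and 32.9%, and Rpl34 30.0% and 26.7%. At the low end stood Rpl35 with 10.4% and 12.6%, Rps2 with 10.6% and 12.3%, Rpl3 with 10.3% and 13.2%, and Rplp1 with 12.3% and 14.2%. Without the male cell of high share, the male values were 43.2% for Rps9, 35.2% for Rps27a and 8.67% for Rps2. Rps9 and Rps27a were the highest members in both libraries, while the scarce Rpl7l1 differed between them, at 36.9% and 20.2%. Ribosomal genes outside the member rule also lay at both ends. Fau, which encodes a ubiquitin-like protein fused to the small-subunit protein eS30, kept 54.9% and 50.7%. The scaffold protein Rack1 kept 14.5% and 16.9%. Among other messages that begin with pyrimidines, Tpt1, a growth-related gene, kept 41.6% and 37.5%, and Eef1a1 kept 17.1% and 24.6%. Rps27a and Fau, both fusion genes, lay above the summed members in both libraries. So did many members that are not fusions, among them Rps9, Rps27, Rpl9 and Rpl34.

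**Figure D5:**
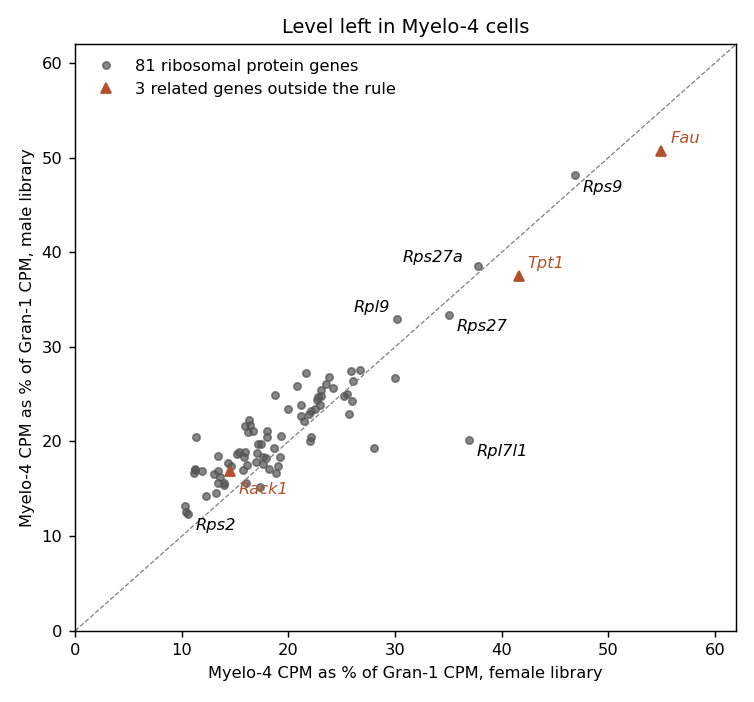
CPM in Myelo-4 as a percent of CPM in Gran-1, female library on the horizontal and male library on the vertical axis, for the 81 members (circles) and for Fau, Tpt1 and Rack1 (triangles), with a dashed line where both libraries are equal. Rps9 lies at 46.9% and 48.1% and Rps2 at 10.6% and 12.3%, and Fau outside the member rule at 54.9% and 50.7%.

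RNA set free by other cells can add UMIs to a small cell. Elane, neutrophil elastase made in granulocyte progenitors, stood in Myelo-4 at 8.29% (female) and 6.24% (male) of its Gran-1 level, Ctsg at 8.27% and 5.16%, Prtn3 at 10.2% and 8.49%, and Mpo at 13.5% and 9.52%. The lowest members were near these values, and the part of free RNA in any member was not tested.

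The genes around the ribosome were read from lists. In Myelo against Gran, all 25 genes of ribosome biogenesis were lower with TMM, with a median log2 fold change of -1.15 beside -0.64 for the ribosomal proteins. Npm1 (-1.23), Ncl (-1.17) and Nop10 (-1.23), which work in the nucleolus, were among them. Of 15 translation factors 13 were lower and 0 higher (median -0.51), with Eef1a1, the carrier of aminoacyl-tRNA, at -0.72. Of 77 mitochondrial ribosomal protein genes 62 were lower and 3 higher (median -0.45). The same TMM background of 32.5% lower holds for these counts. Fau (0.03, adjusted p = 0.79) was not called with TMM, and by total UMIs it stood at -0.47. The shares over all genes in Gran against early were 32.5% higher and 34.2% lower with TMM and 16.1% and 56.1% by total UMIs. There, 62 of 78 mitochondrial ribosomal protein genes were higher and 3 lower with TMM, and 36 higher and 17 lower by total UMIs. Ribosome biogenesis was split at 8 higher and 6 lower of 25 with TMM and 3 higher and 19 lower by total UMIs. Translation factors stood at 5 higher and 4 lower of 15 with TMM and at 0 higher and 14 lower by total UMIs. The counts of higher biogenesis genes and translation factors with TMM were thus near the share over all genes. In Eryth against early 7 of the 25 biogenesis genes were higher and 0 lower with TMM, where 5.95% of all genes were higher and 9.09% lower.

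Some of these levels are uncertain because of near-identical copies, whose shared reads the authors' counting may have dropped or moved. The 16 pseudogene rows of the family held 0.647% as many UMIs as the members. Rpl36al held 44.3% as many as Rpl36a, Rps27rt 13.6% as many as Rps27, Rpl23a-ps3 10.4% as many as Rpl23a, Rpl10-ps3 9.9% as many as Rpl10 and Rps12-ps3 8.3% as many as Rps12. The values of these members, and of Rpl6l, are therefore less certain than those of the rest.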

How the data were processed

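Raw UMI counts of 28692 gene IDs in 11132 cells were used as deposited by the authors. Cell Ranger 2.1.0 and mm10 are named in the submitters' processing notes, and the sources used here do not state how cells were called or clustered. Deposited antibody counts and the authors' cluster label of each cell were also used. The ending of a cell name gave its library. No cell was filtered and no doublet caller was run. IDs without a symbol held 0.023% of the UMIs.

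UMIs were summed per library and class or label and fitted in R 4.3.3 by edgeR's quasi-likelihood test (version 4.0.16, filterByExpr, TMM, library as covariate, Benjamini-Hochberg over all genes tested, threshold 0.05). Each class sum pairs with the other sum of its library because both come from the same loaded cells. A class fit leaves 1 residual degree of freedom and the label fit 16. The spread behind a p-value or SE is that left between these 2 libraries, not between mice. The fits estimate it with information shared over all genes tested, so it is not the spread of a single gene alone. Each SE is the size of the log2 fold change divided by the root of its F statistic. All 81 members passed the expression filter in every comparison. Departures used 0.5 UMIs added before log2, and counting errors cover counting only. The procedure was tested on simulated data. Of changes of 0.5 in log2 it recovered 73.1% in Gran against early, 59.7% in Myelo against Gran and 71.6% in Gran against monocytic. In Eryth against early it recovered 10.45%. The changed genes were drawn from all genes tested, not from the abundant members, with a shared dispersion and no library difference. These rates are therefore not the recovery of members. Members not called in Eryth against early may still have changed. Other software was matplotlib 3.10.9, scipy 1.17.1, pandas 2.3.3, numpy 2.4.6, DESeq2 1.42.0 and Python 3.11.15.

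Members and lists were chosen with earlier results of these data known. Named genes were the most and least abundant members, those with the largest SD of departure, the 4 farthest above and below the median member in each comparison, the paralogs, and fixed list genes. Other members are named where a count or a sequence called for them, after their values were seen. Alternatives were other scalings, filters, tools, class definitions, thinning to 4000 UMIs per cell and leaving out a library. A few genes are not reported here.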

Additional observations from a re-analysis of the deposited data

How the results depend on the processing

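Member counts and medians were recomputed under each alternative. For Gran against early (69 higher, 2 lower, median 0.19), total UMIs gave 13 higher, 59 lower and -0.10, the UMIs of all other genes gave 10, 65 and -0.16, and the summed members gave 30, 32 and 0.0063. The count lower was 1 with DESeq2 size factors, DESeq2, no filter, all labels in the fit, HSCP-1 and HSCP-2 as early, or Gran-1 alone, 9 after thinning, 4 with Multi-Lin as early, 15 with Gran-2 alone, and 0 without the replicate block. The median was 0.21 with DESeq2 size factors and with DESeq2, 0.22 with no filter, 0.14 after thinning, 0.23 in the fit over all labels, 0.16 with Multi-Lin and 0.30 with the HSCP labels as early, 0.21 for Gran-1 and 0.10 for Gran-2. Leaving out a library gave 0.19 to 0.20.

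For Myelo against Gran (81 lower, median -0.64), the summed members gave 7 higher, 10 lower and -0.0007. The median was -1.13 with total UMIs, -1.48 with other genes' UMIs, -0.81 after thinning, -1.04 in the fit over all labels, -1.04 without Myelo-1, -0.51 without Myelo-2, -0.53 without Myelo-3, and -0.69 to -0.59 leaving out a library. Without the replicate block 80 members stayed lower.

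For Gran against monocytic (19 higher, 35 lower, median -0.02), the count higher was 7 with total UMIs, 4 with other genes' UMIs, 9 with DESeq2, 9 after thinning, 10 over all labels and 4 without the replicate block. The count lower was 65, 71 and 14 in the first 3 of these, 2 over all labels and 0 without the replicate block. The median was -0.0171 with DESeq2 size factors, -0.017 with DESeq2, -0.0796 with total UMIs, -0.12 with other genes' UMIs, -0.0096 with summed members, -0.0038 with no filter, -0.0387 after thinning, 0.0069 over all labels and -0.018 to -0.0174 leaving out a library.

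For Eryth against early (6 higher, 0 lower, median 0.07), the count higher was 21 with total UMIs, 32 with other genes' UMIs, 2 with no filter, 2 without the replicate block, 1 after thinning and 40 over all labels. The count lower was 1 with total UMIs and 7 with summed members. The median was -0.0232 with summed members, 0.18 over all labels, and 0.01 to 0.14 leaving out a library. The range of shares over labels was 25.014 points without the 14 dominant genes and 30.7 to 32.8 within a library. The median SD of departure was 0.106 without small labels and 0.14 to 0.15 within a library.

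Single genes turned their sign in 27 of 836 alternatives. In Gran against early, Rps4x gave 0.0225 with the HSCP labels as early. Rack1 gave -0.25 with total UMIs, -0.31 with other genes' UMIs, -0.14 with summed members and -0.21 for Gran-2. Naca gave -0.23, -0.29 and -0.12 under those scalings and -0.02 after thinning. Npm1 gave 0.41 with the HSCP labels as early and 0.0788 for Gran-1. Ncl gave -0.29, -0.34 and -0.18 under those scalings, -0.0923 with Multi-Lin as early and -0.37 for Gran-2. In Myelo against Gran with summed members, Rps9 gave 0.41, Rpl9 0.31, Rpl35a 0.28, Rps27a 0.25, Rpl7l1 0.15, Rpl36al 0.0653, Tpt1 0.62 and Naca 0.13. Fau gave -0.47 with total UMIs, -0.82 with other genes' UMIs and -0.15 over all labels. The scalings change by construction what each member is set against, and the cause of the other changes was not tested. With a library left out no residual degree of freedom remains, so those values carry no test. Without the cells over 20% in Myelo-3 and Myelo-4 the range of shares was 32.4 points and the median SD 0.15. That setting, thinning of the label shares and the other scalings of the fit over labels were chosen after seeing the data. Small labels (HSCP-1, DC, Myelo-4) limit single members through counting error.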

Other observations

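Cells that went against the share of their label were found in several labels. In Myelo-3, the median cell held 7.83% of its UMIs on ribosomal protein genes (female) and 7.66% (male), but 10 of 426 female cells (2.35%) and 71 of 529 male cells (13.4%) held over 20%. Those cells had a median of 17972 and 13271 UMIs against 9433 and 8185.5 in the other Myelo-3 cells, and mitochondrial UMIs of 2.09% and 2.01% against 0.912% and 0.944%. Their median CD117 antibody count was 680 and 377 against 94.5 and 65. CD11b (8518.5 and 3472 against 5783.5 and 3107) and Ly-6G (4530 and 3026 against 3729 and 2053) were higher as well. Ly-6C was lower (6559.5 and 3834 against 7207 and 4493.5). Ltf stood at 2783 and 3105 CPM in them against 5625 and 5924, and Camp at 34153 and 30040 against 66011 and 68017. Of the progenitor genes, Elane stood at 924 and 909 CPM against 1016 and 1001, and Mpo at 1332 and 1266 against 1115 and 1047. The male Myelo-3 share of 12.0%, above the female 8.87%, includes these cells. Doublets were not called, and their part was not tested. Myelo-1 lay across 20%, with its median cell above it at 23.6% and 24.1%. In this label 138 of 194 female cells (71.1%) and 273 of 365 male cells (74.8%) held over 20%. The late granule gene Ngp stood at 10736 and 11698 CPM in these and at 24597 and 24109 in the rest.

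A few Gran-1 cells lay at the other end. In 7 of 832 female and 5 of 1541 male cells the share was 20% or under, with a median of 5479 and 5195 UMIs and mitochondrial UMIs of 12.2% and 18.1% against 2.76% and 2.75% in the other cells.

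The libraries differed in a few members. Rpl6l stood at 213.85 CPM (female) and 140.6 (male), and was higher in the female library in 13 of 13 labels with enough UMIs. Rpl15 stood at 1781 and 1515 and was higher in 15 of 16. For 72 of the 81 members the libraries lay within 0.1 on the log2 scale. With 1 library per sex there is no test.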
